A study of Homo sapiens with 15 samples.

Results

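The BCL2 family genes described here are BCL2, BCL2L1, MCL1, BCL2L11, HRK, BBC3, PMAIP1, BID, BAX and BAK1, and their members were all probes annotated to those 10 genes on an Illumina HumanHT-12 v4 bead array. They hold 21 of the 48105 probes analysed, and 20 of them, covering all 10 genes, were among the 23680 probes kept by the filter on dim signals. RNA came from MDA-MB-436, a human breast cancer line that lacks functional BRCA1, so every group shares that defect and the results rest on 1 cell line. The 5 groups of 3 arrays had been kept for 7 days in the solvent DMSO, in AG014699 at 10 nM, in AG014699 at 100 nM, in LY294002, or in 100 nM AG014699 together with LY294002, called the combination below. AG014699 (rucaparib) blocks PARP1, an enzyme needed for repair of DNA strand breaks. LY294002 blocks PI3K, a lipid kinase that carries survival signals from growth factor receptors. The concentration of LY294002 is not given in the sources used here. The arrays are described as triplicates without a statement that they were separate cultures, so p-values reflect only array-to-array spread, part or all of which may be technical.

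Proteins of the BCL2 family decide whether the outer mitochondrial membrane stays intact. BCL2, BCL-XL (encoded by BCL2L1) and MCL1 hold the pore-forming effectors BAX and BAK in check, and the BH3-only proteins BIM (encoded by BCL2L11), HRK, PUMA (BBC3), NOXA (PMAIP1) and BID bind these guardians or activate the effectors. Opening of the membrane releases cytochrome c, which starts the caspase cascade. PI3K signalling is known to keep FOXO transcription factors out of the nucleus, and BCL2L11 is a known FOXO target.

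Between 18971 and 20808 probes were detected per array, and log2 signals of arrays of 1 group correlated at 0.979 to 0.991, against 0.965 to 0.987 between groups, across probes, which are not independent replicates. All 6 mesenchymal and basal breast markers were measured. VIM stood at percentile 98.7 of all genes, CD44 at 98.4, MSN at 89.6, CAV1 at 85.4, AXL at 82.1 and EGFR at 63. The summed linear signal of these 6 was 22930 to 25350 in DMSO, 22130 to 23600 at 10 nM and 22880 to 24390 at 100 nM. It was 26200 to 27580 in LY294002 and 24640 to 27850 in the combination. Of 8 luminal markers ESR1 stood at percentile 0.561, and FOXA1, KRT18, KRT8 and ERBB2 at 51.7 to 64.3, a range that holds EGFR. The luminal markers PGR, GATA3 and CDH1 did not pass the filter. Of 8 leukocyte markers 4 were measured (CD14, CD68, ITGAM and NCAM1), while PTPRC, CD3E, CD3D and MS4A1 did not pass, and 0 of 5 endothelial markers were measured. CD68 stood at percentile 91.9, CD14 at 59.8, NCAM1 at 33.8 and ITGAM at 10.9. With a mean log2 signal of 11.37, against 8.42 for CD14, CD68 weighs most in a linear sum. The summed linear signal of those 4 genes was 2177 to 2344 in DMSO, 3223 to 4089 at 10 nM, 3819 to 4766 at 100 nM, 1835 to 2095 in LY294002 and 3936 to 4858 in the combination. That of the 5 measured luminal markers was 1465 to 1495 in DMSO, 1234 to 1524 at 10 nM, 1018 to 1141 at 100 nM, 1568 to 1967 in LY294002 and 1086 to 1234 in the combination, so the 100 nM and combination arrays lay below all DMSO and LY294002 arrays. RNAs without a poly(A) tail moved with the same groups: over 181 such genes the mean log2 signal per array was 6.252 to 6.362 in DMSO, 6.418 to 6.544 at 10 nM, 6.676 to 6.741 at 100 nM, 6.183 to 6.264 in LY294002 and 6.687 to 6.702 in the combination. Against DMSO 43 of the 181 rose at 100 nM, 45 in the combination and 0 in LY294002. Their part, and that of the leukocyte and luminal markers, in the results below was not tested.

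Changes below are differences of mean normalized log2 signal between 2 groups, with the standard error (SE) of a model fitted to all 15 arrays, and a probe is called at an adjusted p under 0.05 over all kept probes. Statements that the arrays of groups lie apart describe the values. The share of all kept probes separated likewise is not given. At 100 nM AG014699, 6 member probes of 4 genes were called against DMSO, 5 higher and 1 lower, that is 30% of the 20 probes tested, where 14.1% of all kept probes were called (7.33% higher and 6.81% lower). Without DMSO array 2 or 3, or without 100 nM array 2, 3 of the 20 were called, beside 9.79%, 10% and 10.4% of all kept probes, and with only the groups compared in the fit 2 were called, beside 8.58%. HRK and all 3 BCL2L11 probes rose, as did 1 of 2 MCL1 probes, and 1 of 3 BID probes fell. The 3 BCL2L11 probes read 1 gene, so the count of probes is not a count of independent members. With each gene as its brightest probe, HRK, BCL2L11 and BID were called, beside 17.7% of all genes. The combination gave the same numbers against DMSO, 5 higher and 1 lower probes of 4 genes, with 13.1% of all kept probes called (7.18% higher and 5.9% lower). These comparisons share the DMSO arrays. At 10 nM 0 member probes were called in limma (3 had an unadjusted p under 0.05; 1.11% of all kept probes were called), and LY294002 alone gave 0 as well (3 unadjusted; 0.452% called). The median change over the 20 probes was -0.05 at 100 nM and -0.11 in the combination, beside -0.03 and -0.02 over all kept probes.

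**Figure D1:**
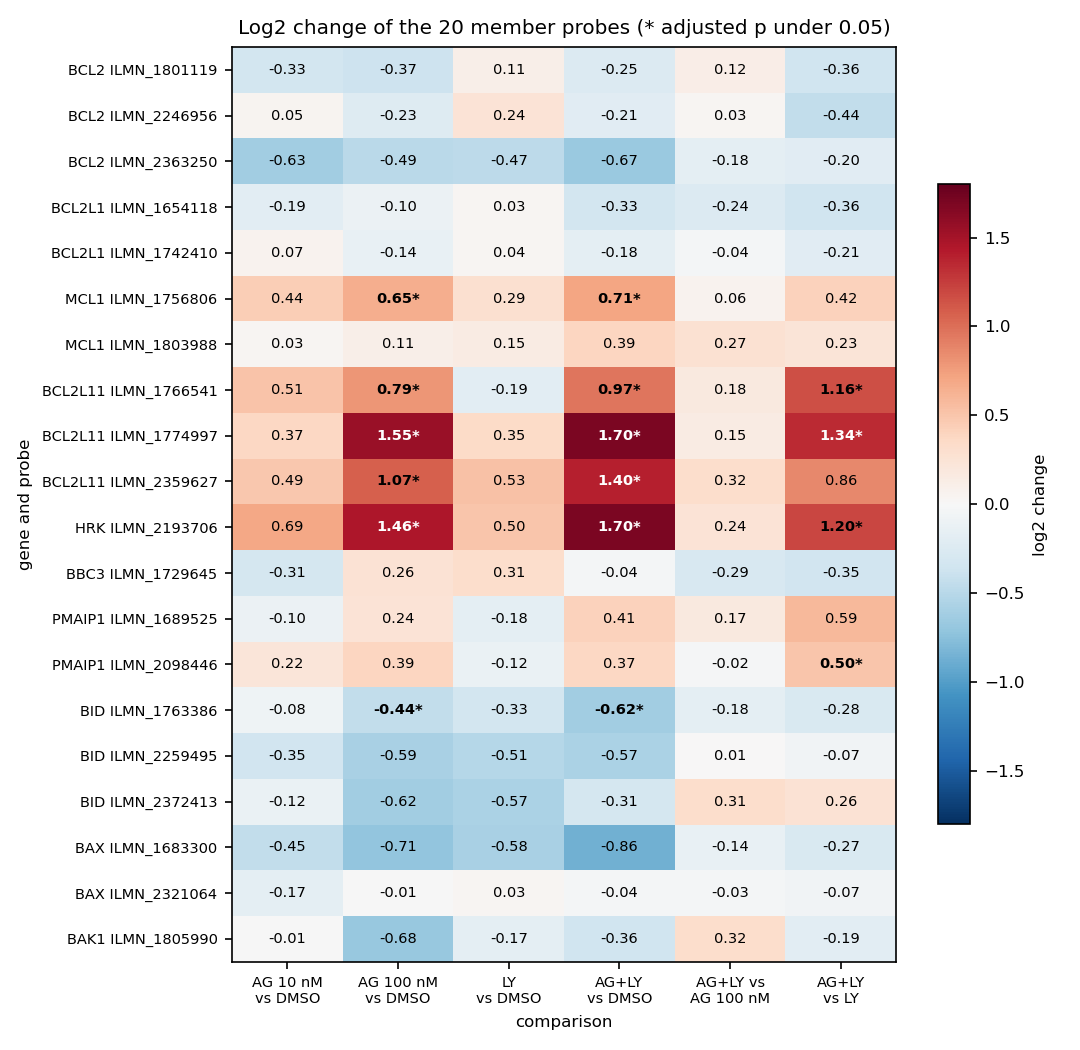
Log2 change of the 20 kept probes of the BCL2 family genes (rows) in 6 comparisons (columns), coloured from blue (lower in the first-named group) to red (higher), with 3 arrays a group; AG is AG014699 and LY is LY294002. For a probe that no array of a group detected, the value is the fitted difference and no measure of size. Bold values with an asterisk have an adjusted p under 0.05, and these lie in the columns with 100 nM AG014699 and in rows of HRK, BCL2L11, MCL1, PMAIP1 and BID.

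HRK, known as harakiri, encodes a BH3-only protein that binds BCL2 and BCL-XL, and its expression is best known from neurons. Its probe ILMN_2193706 was detected on all 15 arrays. The log2 signal was 9.62, 9.38 and 9.68 on the 3 DMSO arrays, 10.26, 10.35 and 10.12 at 10 nM AG014699, and 10.78, 11.47 and 10.80 at 100 nM. In LY294002 it was 10.00, 10.23 and 9.97, and in the combination 11.33, 11.28 and 11.18. Every treated array lay above every DMSO array, and the 100 nM and combination arrays lay above all others. HRK rose by 1.46 at 100 nM (SE 0.18, 2.75-fold, adjusted p = 5.69e-05) and by 1.70 in the combination (SE 0.18, 3.25-fold, adjusted p = 1.36e-05). RNA was taken from whole cultures, in which more cells expressing a gene and more RNA per cell cannot be told apart.

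Ordered by mean level, HRK stood at 9.56 ± 0.16 in DMSO, 10.06 ± 0.14 in LY294002, 10.25 ± 0.12 at 10 nM, 11.02 ± 0.39 at 100 nM and 11.26 ± 0.08 in the combination (log2 signal, SD, n = 3 each). The difference of LY294002 from DMSO was 0.50 (adjusted p = 0.288), and that of 10 nM from DMSO was 0.69 (SE 0.18, adjusted p = 0.0819). Neither passed the test, and LY294002 and 10 nM did not differ beyond their spread (-0.18, adjusted p = 0.654; 4.17% of all kept probes called). The step from 10 to 100 nM did pass, at 0.77 (SE 0.18, adjusted p = 0.0181), in a comparison with 2 member probes of 2 genes called, both higher, and 5.59% of all kept probes called (2.83% higher). This step was not called without array 3 of the 10 nM group (adjusted p = 0.0761) or without array 2 of the 100 nM group (0.55, adjusted p = 0.0625), the array with the highest HRK signal. The 10 nM difference crossed the threshold under other settings, for example on the deposited signals as they are (0.63, adjusted p = 0.0135) and without array 2 of the 100 nM group (adjusted p = 0.021).

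**Figure D2:**
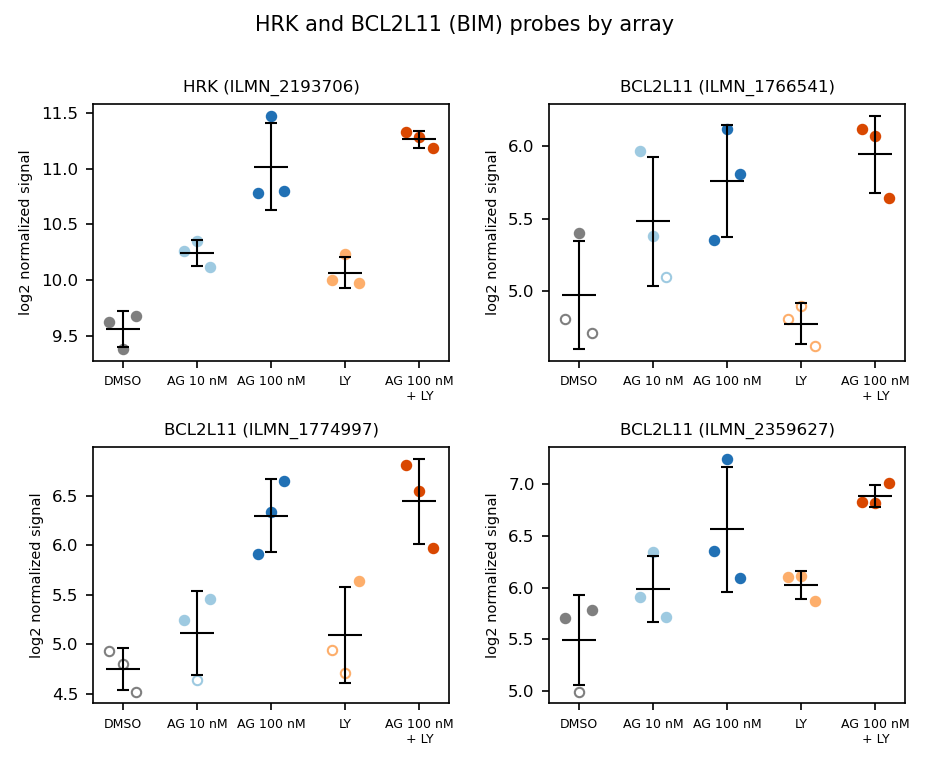
Normalized log2 signal of the HRK probe and the 3 BCL2L11 (BIM) probes on each of the 15 arrays, by treatment group (AG, AG014699; LY, LY294002). Filled points were detected at p under 0.05 and open points were not; black bars show the mean and SD of 3 arrays, and each panel has its own axis. HRK is highest on the 100 nM and combination arrays, between 10.78 and 11.47, and at most 10.35 on the other arrays.

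BCL2L11 encodes BIM, a BH3-only protein that binds all the anti-apoptotic members and can activate BAX and BAK directly. Its probes were dim, and their log2 values are read on each probe alone. Probe ILMN_1774997 had values of 4.93, 4.80 and 4.52 in DMSO, where no array detected it, and 5.91, 6.33 and 6.65 at 100 nM. In the combination it was 6.81, 6.55 and 5.97, in LY294002 4.94, 4.71 and 5.64, and at 10 nM 5.24, 4.64 and 5.46. The 100 nM and combination arrays did not overlap with any array of the other 3 groups. This probe rose by at least 2.27-fold at 100 nM (adjusted p = 0.00192) and at least 2.51-fold in the combination (adjusted p = 0.00103), taken from the DMSO arrays' detection floor. These bounds hold for the background-corrected signals only. From 10 to 100 nM it rose by 1.19 (SE 0.28, adjusted p = 0.024). That step lost its call without array 1 or 2 of the 10 nM group (adjusted p = 0.0505 and 0.111) or array 2 or 3 of the 100 nM group (adjusted p = 0.0671 and 0.0817).

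Probe ILMN_2359627, the brightest of BCL2L11, was detected on 14 of 15 arrays. Its log2 signal was 5.70, 4.99 and 5.78 in DMSO, 5.91, 6.34 and 5.71 at 10 nM, and 6.35, 7.25 and 6.09 at 100 nM. It was 6.10, 6.11 and 5.87 in LY294002 and 6.83, 6.82 and 7.01 in the combination. All 3 arrays of 100 nM, of the combination and of LY294002 lay above the DMSO arrays. The 100 nM arrays overlapped with those of 10 nM and LY294002. In LY294002 the difference from DMSO was 0.53 (SE 0.27, adjusted p = 0.493), which was not called. The probe rose by 1.07 at 100 nM (SE 0.27, adjusted p = 0.0153) and by 1.40 in the combination (SE 0.27, adjusted p = 0.00308). The 100 nM call ended without DMSO array 2 (0.82, adjusted p = 0.0795) or without 100 nM array 2 (0.73, adjusted p = 0.0664).

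Probe ILMN_1766541 was detected on none of the LY294002 arrays, where it read 4.81, 4.90 and 4.62. It read 4.81, 5.40 and 4.71 in DMSO and 5.97, 5.38 and 5.10 at 10 nM. At 100 nM it was 5.35, 6.12 and 5.81, and in the combination 6.12, 6.07 and 5.64. The combination arrays lay above all DMSO and LY294002 arrays, and 1 of the 100 nM arrays overlapped with DMSO. Its rise of 0.79 at 100 nM (SE 0.25, adjusted p = 0.0482) was called in 6 of 24 alternative analyses, with adjusted p between 0.0258 and 0.18 over them. The rise of 0.97 in the combination (SE 0.25, adjusted p = 0.0185) ended without DMSO array 1 or 3 (adjusted p = 0.0698 and 0.078) or without combination array 1 or 2 (adjusted p = 0.0727 and 0.0684). The sizes on these dim probes depend on the background correction. Without it the difference of ILMN_1774997 from DMSO was 0.61 at 100 nM and 0.69 in the combination, smaller than the bounds above, and both were called. ILMN_2359627 then rose by 0.47 and 0.63, ILMN_1774997 by 0.47 from 10 to 100 nM, and the difference of ILMN_1766541 was 0.29 (adjusted p = 0.0733) at 100 nM and 0.36 in the combination.

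Over the 15 arrays the log2 signals of the 3 BCL2L11 probes correlated with that of HRK at 0.78 (ILMN_1766541), 0.84 (ILMN_1774997) and 0.93 (ILMN_2359627), and with each other at 0.59 to 0.72. These arrays fall into 5 treatment groups, so the values describe a shared pattern of group means and arrays. Among 12302 genes, each as its brightest probe, those most like HRK over the 15 arrays were the growth arrest gene GADD45A (r = 0.98), ANGPTL4, which encodes a lipoprotein lipase inhibitor (0.977), the U1 small nuclear RNA gene RNU1-3 (0.975), the CDK inhibitor gene CDKN1A (0.97) and the claudin gene CLDN15 (0.97). Those most like ILMN_2359627 were SAP18 (0.957), HRK (0.93), ANGPTL4 (0.929), CHGA (0.913) and PSG4 (0.909). RNU1-3 belongs to those 181 RNAs, and it rose by 1.42 at 100 nM and by 1.61 in the combination.

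The 250 bases upstream of the RefSeq starts of BCL2L11 and HRK are shown because these are the members whose probes rose together. The sequences come from RefSeq on GRCh38.p14, BCL2L11 at chr2:111120664-111120913 on the plus strand and HRK at chr12:116881442-116881691 on the minus strand, printed 5′ to 3′ along the gene. Capitals mark GTAAACA, a FOXO binding motif, in BCL2L11, and a match to TGATGNAA, the C/EBP-ATF element, in HRK.
BCL2L11: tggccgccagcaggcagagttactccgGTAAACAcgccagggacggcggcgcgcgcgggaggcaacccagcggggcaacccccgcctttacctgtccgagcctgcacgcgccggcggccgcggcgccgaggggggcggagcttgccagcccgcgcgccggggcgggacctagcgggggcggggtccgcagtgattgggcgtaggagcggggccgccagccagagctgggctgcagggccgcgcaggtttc
HRK: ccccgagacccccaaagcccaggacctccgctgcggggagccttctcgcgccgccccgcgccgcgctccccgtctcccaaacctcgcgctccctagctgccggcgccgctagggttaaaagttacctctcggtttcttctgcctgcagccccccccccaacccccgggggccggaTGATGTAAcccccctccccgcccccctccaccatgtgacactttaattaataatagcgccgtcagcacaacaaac
Both strands were searched for 6 motifs, of which TGATGNAA was added after the HRK sequence had been read. GTAAACA was in 2.98% of 35116 promoter windows of this length and TGATGNAA in 3.14%. Both windows also hold GGGCGG, the GC box bound by SP1, which was in 42.6% of windows, and neither holds TGANTCA (AP-1; 6.57%), TGACGTCA (CRE; 1.65%) or TATAAA (10.7%). The window of BCL2L11 has 76.8% G and C and that of HRK 66.4%, against a median of 58% over all windows. A match of letters describes the window and is no evidence of binding.

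Among the anti-apoptotic members, MCL1, whose protein is short-lived and holds BAK and BIM, was the only gene with a called probe against DMSO, and its probes differed. On ILMN_1756806 the log2 signal was 9.55, 9.24 and 8.83 in DMSO and 9.90, 9.92 and 9.76 at 100 nM AG014699. The combination had 9.84, 10.18 and 9.73, 10 nM 9.85, 9.56 and 9.53, and LY294002 9.58, 9.55 and 9.36. All 100 nM and combination arrays lay above the DMSO arrays, and the DMSO arrays spread widely. It rose by 0.65 at 100 nM (SE 0.18, adjusted p = 0.0252) and by 0.71 in the combination (SE 0.18, adjusted p = 0.017). The first call ended without DMSO array 2 or 3 (adjusted p = 0.0609 and 0.12) or 100 nM array 1 or 2 (adjusted p = 0.0674 and 0.0736), and the second without DMSO array 3 or combination array 2 (adjusted p = 0.0827 and 0.086). The other probe, ILMN_1803988, was at 10.55 ± 0.28 in DMSO, 10.66 ± 0.08 at 100 nM and 10.94 ± 0.06 in the combination (SD, n = 3 each), differences of 0.11 (adjusted p = 0.739) and 0.39 (adjusted p = 0.177).

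BCL2L1, which encodes BCL-XL, passed no test on either probe. ILMN_1654118 was at 11.56 ± 0.15 in DMSO, 11.37 ± 0.24 at 10 nM, 11.46 ± 0.09 at 100 nM, 11.59 ± 0.15 in LY294002 and 11.23 ± 0.13 in the combination. Its difference at 100 nM was -0.10 (95% interval -0.42 to 0.23), and in the combination -0.33 (-0.66 to -0.01, adjusted p = 0.178). ILMN_1742410 differed by -0.14 (-0.69 to 0.41) and -0.18 (-0.73 to 0.37). In the comparison of the combination with LY294002 the first probe differed by -0.36 (adjusted p = 0.146), which was called in 2 alternatives, the deposited signals as they are and the authors' value table.

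BCL2, the founding guardian of the family, had 4 probes, and none of the 3 kept ones was called in any comparison. ILMN_1801119 and ILMN_2246956 were detected on all 15 arrays, with ranges of 5.30 to 6.42 and 5.96 to 6.78. Their differences from DMSO were -0.37 and -0.23 at 100 nM (adjusted p = 0.248 and 0.389) and -0.25 and -0.21 in the combination (adjusted p = 0.487 and 0.482). The first of them was called at 100 nM without array 1 of that group (-0.61, adjusted p = 0.0489). ILMN_2363250 was detected on 5 of 15 arrays and on 0 of 3 combination arrays. Its difference from DMSO was -0.49 at 100 nM (adjusted p = 0.228) and -0.63 at 10 nM (adjusted p = 0.378). The fourth probe, ILMN_1701120, was detected on 1 of 15 arrays and was not tested.

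The pore-forming effectors passed no test either. BAK1 encodes BAK, which sits in the mitochondrial membrane and is held by MCL1 and BCL-XL. Its log2 signal was 6.53, 7.22 and 6.62 in DMSO, 7.08, 6.66 and 6.61 at 10 nM, and 5.89, 6.0 and 6.43 at 100 nM. LY294002 had 6.53, 6.68 and 6.65, and the combination 6.57, 5.97 and 6.75. The 100 nM arrays lay below all DMSO, 10 nM and LY294002 arrays, while those of the combination overlapped with each of these groups. The difference at 100 nM was -0.68 (SE 0.23, 95% interval -1.17 to -0.20, adjusted p = 0.0591), just short of the threshold. It passed in 7 alternatives, among them the fits without 100 nM array 3 (-0.85, adjusted p = 0.0358) and without combination array 2 (adjusted p = 0.0405), the fit with offset 50 (-0.49, adjusted p = 0.0406) and that on the authors' value table (-0.34, adjusted p = 0.0477).

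BAX encodes the effector that moves from the cytosol to mitochondria. Its brighter probe, ILMN_2321064, was at 9.0 ± 0.17 in DMSO, 8.99 ± 0.38 at 100 nM and 8.97 ± 0.11 in the combination, differences of -0.01 (95% interval -0.39 to 0.36) and -0.04 (-0.41 to 0.34). The dimmer ILMN_1683300 spread widely, from 5.28 to 6.99, and differed by -0.71 (adjusted p = 0.168) and -0.86 (adjusted p = 0.101). Its combination arrays, 5.59 to 6.01, lay below all DMSO arrays, 6.39 to 6.99. The probes of this gene therefore gave different sizes, and the dimmer one was called in the combination in 5 alternative analyses. Its value in these was -0.86 with only the groups compared, -0.84 with array weights, -0.60 with offset 50, and -0.40 without background correction and on the deposited signals (adjusted p = 0.0226 to 0.0478).

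**Figure D3:**
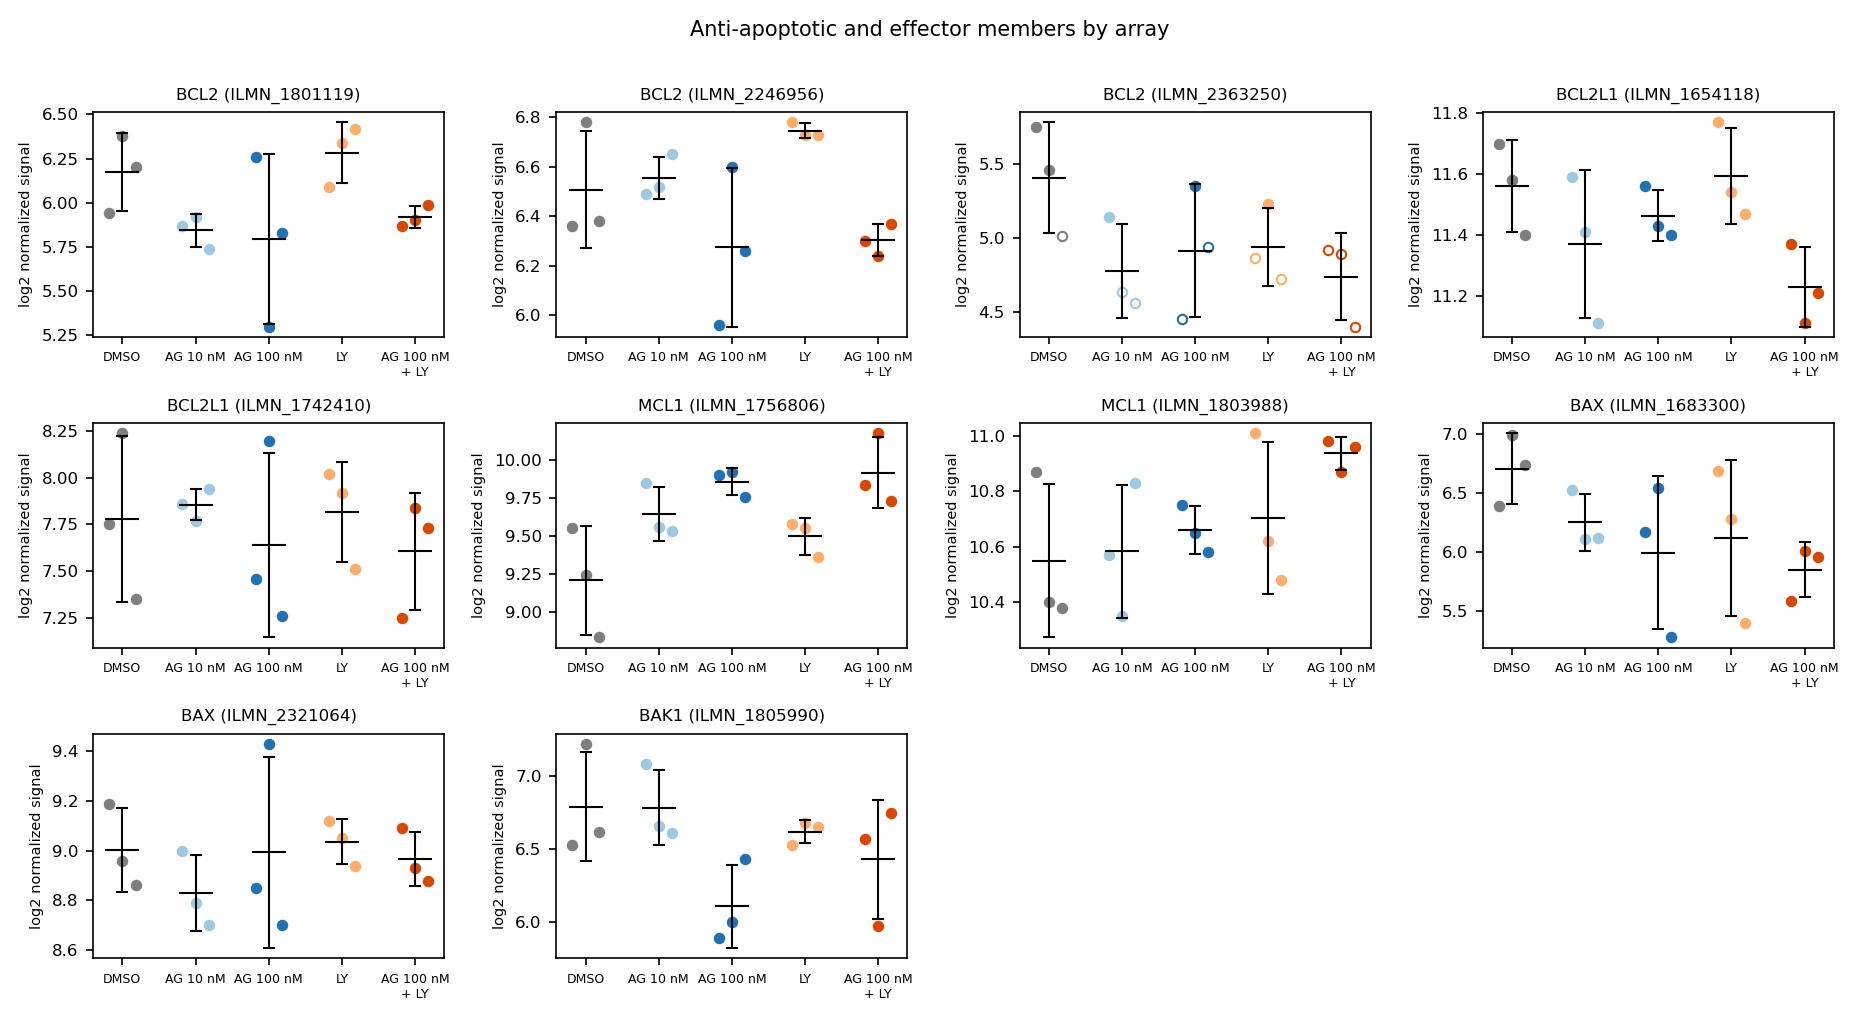
Normalized log2 signal of the 10 kept probes of BCL2, BCL2L1, MCL1, BAX and BAK1 on each of the 15 arrays, by treatment group. Filled points were detected at p under 0.05 and open points were not; black bars show the mean and SD of 3 arrays, and each panel has its own axis. MCL1 ILMN_1756806 has its 3 DMSO arrays, 8.83 to 9.55, below all 100 nM and combination arrays, and the BAX panels show no such separation between DMSO and 100 nM. On BAX ILMN_1683300 the combination arrays, 5.59 to 6.01, lie below the DMSO arrays, 6.39 to 6.99.

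BID, a BH3-only protein that caspase 8 cuts into its active form and that so links death receptors to mitochondria, was the member that fell. Probe ILMN_1763386 was at 9.37, 9.31 and 9.33 in DMSO, 9.30, 9.25 and 9.22 at 10 nM, and 8.98, 8.82 and 8.91 at 100 nM. LY294002 had 9.15, 8.88 and 8.98, and the combination 8.74, 8.74 and 8.68. Every treated array lay below every DMSO array, and the combination arrays were the lowest of all. The probe fell by 0.44 at 100 nM (SE 0.12, 0.739-fold, adjusted p = 0.0215) and by 0.62 in the combination (SE 0.12, 0.653-fold, adjusted p = 0.00278). In LY294002 the difference of -0.33 was not called (adjusted p = 0.292). Without any 1 of the DMSO arrays, or without 100 nM array 2, the 100 nM call ended (adjusted p = 0.0511 to 0.0743), and the combination call held in all 27 alternatives.

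The other BID probes were not called. ILMN_2372413 differed from DMSO by -0.62 at 100 nM (adjusted p = 0.0601), -0.57 in LY294002 (adjusted p = 0.307) and -0.31 in the combination (adjusted p = 0.388). The first of these was called in 10 alternatives, among them the fits without 100 nM array 1 (-0.79, adjusted p = 0.0327) and without LY294002 array 1 (adjusted p = 0.0321), and it was -0.38 without background correction (adjusted p = 0.0332). ILMN_2259495, detected on 9 of 15 arrays, differed by -0.59 at 100 nM and -0.57 in the combination (adjusted p = 0.132 and 0.149). All 3 probes thus had negative differences from DMSO in these groups, and the order of 100 nM and the combination was not the same on them.

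PMAIP1 encodes NOXA, a BH3-only protein that binds MCL1. Probe ILMN_2098446 was at 10.54, 10.72 and 10.71 in DMSO and 10.70, 10.93 and 11 at 10 nM. It was 11.21, 10.84 and 11.10 at 100 nM, 10.52, 10.53 and 10.55 in LY294002, and 10.98, 10.99 and 11.11 in the combination. All 100 nM and combination arrays lay above all DMSO and LY294002 arrays. The differences from DMSO were 0.39 at 100 nM (SE 0.13, adjusted p = 0.0643) and 0.37 in the combination (adjusted p = 0.0849). They were called in 8 and 7 alternatives, among them the deposited signals as they are (adjusted p = 0.0176 and 0.0264). ILMN_1689525 differed by 0.24 (adjusted p = 0.483) and 0.41 (adjusted p = 0.211).

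BBC3 encodes PUMA, a BH3-only protein best known as a p53 target. Its log2 signal was 7.31, 7.31 and 7.09 in DMSO, 6.77, 7.08 and 6.94 at 10 nM, 7.25, 7.66 and 7.58 at 100 nM, 7.52, 7.79 and 7.35 in LY294002, and 6.87, 7.30 and 7.44 in the combination. The 10 nM arrays lay below all DMSO, 100 nM and LY294002 arrays and overlapped with the combination. The closest values were 7.08 at 10 nM and 7.09 in DMSO, and the difference of these groups was -0.31 (adjusted p = 0.625). No comparison was called, and the largest difference within the AG014699 series was that of 100 against 10 nM, 0.56 (SE 0.18, adjusted p = 0.0798), which passed in 3 alternatives, such as that restricted to probes detected on all 15 arrays (adjusted p = 0.0417) and that on the authors' value table (0.35, adjusted p = 0.048).

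**Figure D4:**
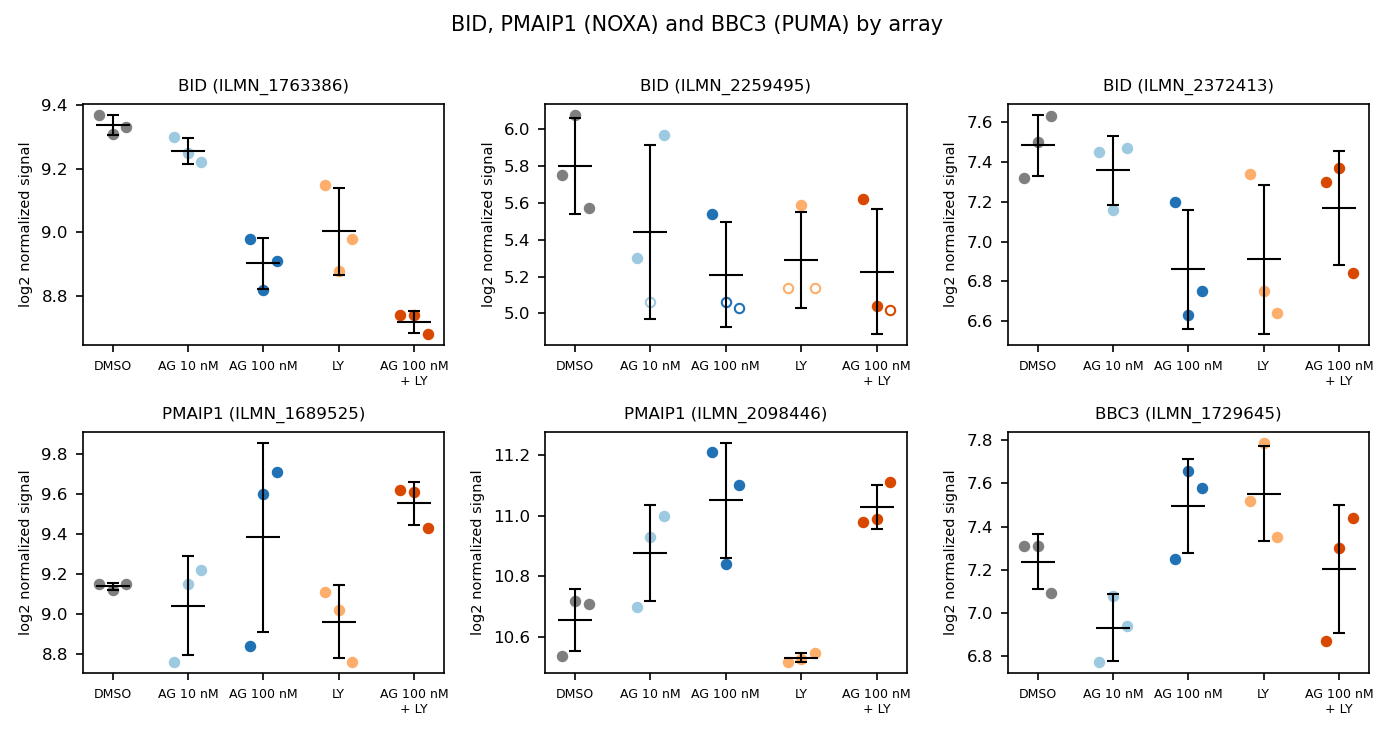
Normalized log2 signal of the probes of BID, PMAIP1 (NOXA) and BBC3 (PUMA) on each of the 15 arrays, by treatment group. Filled points were detected at p under 0.05 and open points were not; black bars show the mean and SD of 3 arrays, and each panel has its own axis. On BID ILMN_1763386 the combination arrays are lowest, between 8.68 and 8.74, and the DMSO arrays highest, between 9.31 and 9.37.

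Adding LY294002 to 100 nM AG014699 moved no member past the test. Between the combination and 100 nM AG014699 alone limma called 0 of the 20 probes (0 with an unadjusted p under 0.05), where 0.131% of all kept probes were called. HRK differed by 0.24 (95% interval -0.13 to 0.61, adjusted p = 0.708). The 3 BCL2L11 probes differed by 0.18 (-0.35 to 0.72), 0.15 (-0.46 to 0.75) and 0.32 (-0.25 to 0.90). These intervals hold 0, falls down to their lower ends and further rises up to their upper ends. The interaction, which asks whether LY294002 changed a probe by another amount with 100 nM AG014699 than without it, was called for 0 of the 20 (2 unadjusted; 0.00422% of all kept probes). For HRK it was -0.26 (95% interval -0.79 to 0.27). The 2 with an unadjusted p under 0.05 were BID ILMN_2372413, at 0.88 (0.25 to 1.51, adjusted p = 0.703), and BBC3, at -0.61 (-1.14 to -0.07, adjusted p = 0.812).

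Adding 100 nM AG014699 to LY294002 did move members: 4 probes of 3 genes were called, all higher, with 11.4% of all kept probes called (6.25% higher). HRK rose by 1.2 (SE 0.18, adjusted p = 0.000418), a call that held in all 27 alternatives. BCL2L11 rose on ILMN_1774997 by 1.34 (SE 0.28, adjusted p = 0.00633) and on ILMN_1766541 by at least 1.71-fold (adjusted p = 0.00699), and the difference of 0.86 on ILMN_2359627 was just short of the threshold (adjusted p = 0.0518) and called in 10 alternatives. The ILMN_1774997 call ended when all 5 arrays numbered 1 were left out (adjusted p = 0.132). Without background correction these differences were 0.55 on ILMN_1774997, 0.43 on ILMN_1766541, smaller than its bound, and 0.43 on ILMN_2359627, all called. PMAIP1 ILMN_2098446 rose by 0.50 (SE 0.13, adjusted p = 0.0259), and its call ended without any 1 of the LY294002 or combination arrays (adjusted p = 0.0536 to 0.0966). The other PMAIP1 probe, ILMN_1689525, differed by 0.59 (adjusted p = 0.0736), which was not called in the main fit and was called in 8 alternatives. Against LY294002 alone, 100 nM AG014699 alone also had 4 probes of the same 3 genes called, all higher, with 16.2% of all kept probes called (8.12% higher) and HRK higher by 0.96 (SE 0.18, adjusted p = 0.00171). From LY294002 to the combination 47 of the 181 RNAs that lack poly(A) rose, beside 7.77% of all genes.

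Around the BCL2 family, 59 genes of 6 pathway lists were measured, each as its brightest probe. At 100 nM AG014699, 10 were called, 6 higher and 4 lower, which is 16.9% beside 17.7% of all genes (8.97% higher and 8.71% lower). Without DMSO array 1 the count was 6, beside 10.9% of all kept probes. In the combination 10 were called as well, 6 higher and 4 lower, again 16.9%, beside 16.6% of all genes (8.93% higher and 7.65% lower). Without any 1 of the DMSO or combination arrays it was 6, beside 8.36% to 9.33% of all kept probes. At 10 nM 0 were called in limma (8 unadjusted; 1.5% of all genes called), and in LY294002 1 (0.707% of all genes). Between the combination and 100 nM AG014699 0 were called (5 unadjusted; 0.179% of all genes), and for the interaction 0 (8 unadjusted; 0.00813%). The share of the pathway genes called was thus close to that of all genes.

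Other members of the family gave 2 calls at 100 nM among 10 measured genes, where 17.7% of all genes were called. The median change of the 10 was 0.16, beside -0.03 for all genes. BIK, a BH3-only protein of the endoplasmic reticulum, rose by 0.75 (SE 0.22, adjusted p = 0.0338), a call that ended without DMSO array 1 or 2 or 100 nM array 1 or 3 (adjusted p up to 0.212 over the alternatives). BOK, a relative of BAX and BAK, fell by 0.62 (SE 0.15, adjusted p = 0.0118) and in the combination by 0.48 (adjusted p = 0.0454). The call at 100 nM ended without DMSO array 3 or 100 nM array 2, and that in the combination without 9 of the 15 arrays when each was left out in turn. BCL2L2, which encodes the anti-apoptotic BCL-W, rose by 0.43 in the combination (SE 0.12, adjusted p = 0.0289), a call that ended without any 1 of the DMSO or combination arrays.

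Downstream of mitochondria, 1 of 11 genes of the apoptosome and caspases rose at 100 nM, beside 8.97% of all genes, and 0 were called lower. The median change of the 11 was nonetheless -0.25 at 100 nM, beside -0.03 for all genes. In the combination it was -0.20, beside -0.02. HTRA2, a mitochondrial protease that blocks inhibitors of apoptosis once released, stood at 8.84 ± 0.21 in DMSO and 9.70 ± 0.37 at 100 nM (SD, n = 3 each), so that it rose by 0.86 (SE 0.19, adjusted p = 0.00733). In the combination it rose by 0.70 (adjusted p = 0.0252), not called without DMSO array 2 or 3 or combination array 1 or 2. The mitochondrial nuclease gene ENDOG fell by 0.68 in the combination (adjusted p = 0.0481), a call that ended without any of 11 of the 15 arrays. Of the inhibitor of apoptosis genes XIAP, BIRC2, BIRC5 and BIRC6, 0 of 4 were called by limma in any comparison, nor did any reach an unadjusted p of 0.05. Their differences at 100 nM lay between -0.20 and 0.11.

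The death receptor list had 3 of 7 genes called at 100 nM, where 17.7% of all genes were called. TNFRSF10B, a receptor for the death ligand TRAIL, rose from 10.26 ± 0.07 to 10.89 ± 0.11, by 0.63 (SE 0.15, adjusted p = 0.011), in all 27 alternatives. TNFRSF10A, the other signalling TRAIL receptor, rose by 0.79 (SE 0.25, adjusted p = 0.0479), which was lost in 12 of 27 alternatives, 11 of them leaving out 1 array. Its mean was 7.3 in DMSO, 8.08 at 10 nM, where it was not called, and 8.09 at 100 nM. TNFRSF1A, the receptor for tumour necrosis factor, fell by 0.65 (SE 0.16, adjusted p = 0.0127), a call that ended without DMSO array 1. In the combination it fell by 0.82 (adjusted p = 0.003), and the TRAIL receptor genes were not called there, at 0.38 and 0.40 (adjusted p = 0.12 and 0.355).

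Among 18 measured regulators of family members, DDIT3 moved most. It encodes CHOP, a stress transcription factor known to induce BCL2L11, and its mean log2 signal was 9.10 ± 0.22 in DMSO, 9.69 ± 0.09 at 10 nM, 9.50 ± 0.22 in LY294002, 10.46 ± 0.14 at 100 nM and 10.64 ± 0.02 in the combination. DDIT3 rose by 1.36 (SE 0.15, adjusted p = 2.36e-05) and 1.54 (adjusted p = 6.9e-06), and it was the 1 pathway gene called between 10 and 100 nM (7.11% of all genes were called there). JUN, an AP-1 subunit, rose by 0.68 at 100 nM (SE 0.16, adjusted p = 0.0111), not called without DMSO array 1, and by 1.11 in the combination (adjusted p = 0.000335). KCNIP3, which encodes the transcriptional repressor DREAM, fell by 0.67 at 100 nM (SE 0.20, adjusted p = 0.0337), a call that ended without DMSO array 2 or 3 or 100 nM array 1 or 2. The differences of the FOXO genes at 100 nM were 0.31 for FOXO1, 0.06 for FOXO3 and 0.25 for FOXO4, none called.

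LY294002 gave 1 call in the pathway, MYC, a growth regulator that can sensitise cells to apoptosis, at 0.56 (SE 0.12, adjusted p = 0.0481), which was lost in 17 of 27 alternatives, 14 of them leaving out 1 array. In the combination MYC rose by 0.53 (adjusted p = 0.00684) and FOXO4 by 0.51 (SE 0.15, adjusted p = 0.038). The FOXO4 call ended without DMSO array 1 or 2, 10 nM array 2, or combination array 1 or 3. Of 9 mitochondrial partners 1 fell, beside 8.71% of all genes at 100 nM and 7.65% in the combination. MTCH2, a receptor for cut BID on the outer membrane, fell by 0.86 at 100 nM (SE 0.19, adjusted p = 0.00753) and by 0.97 in the combination (adjusted p = 0.00379), in all 27 alternatives.

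**Figure D5:**
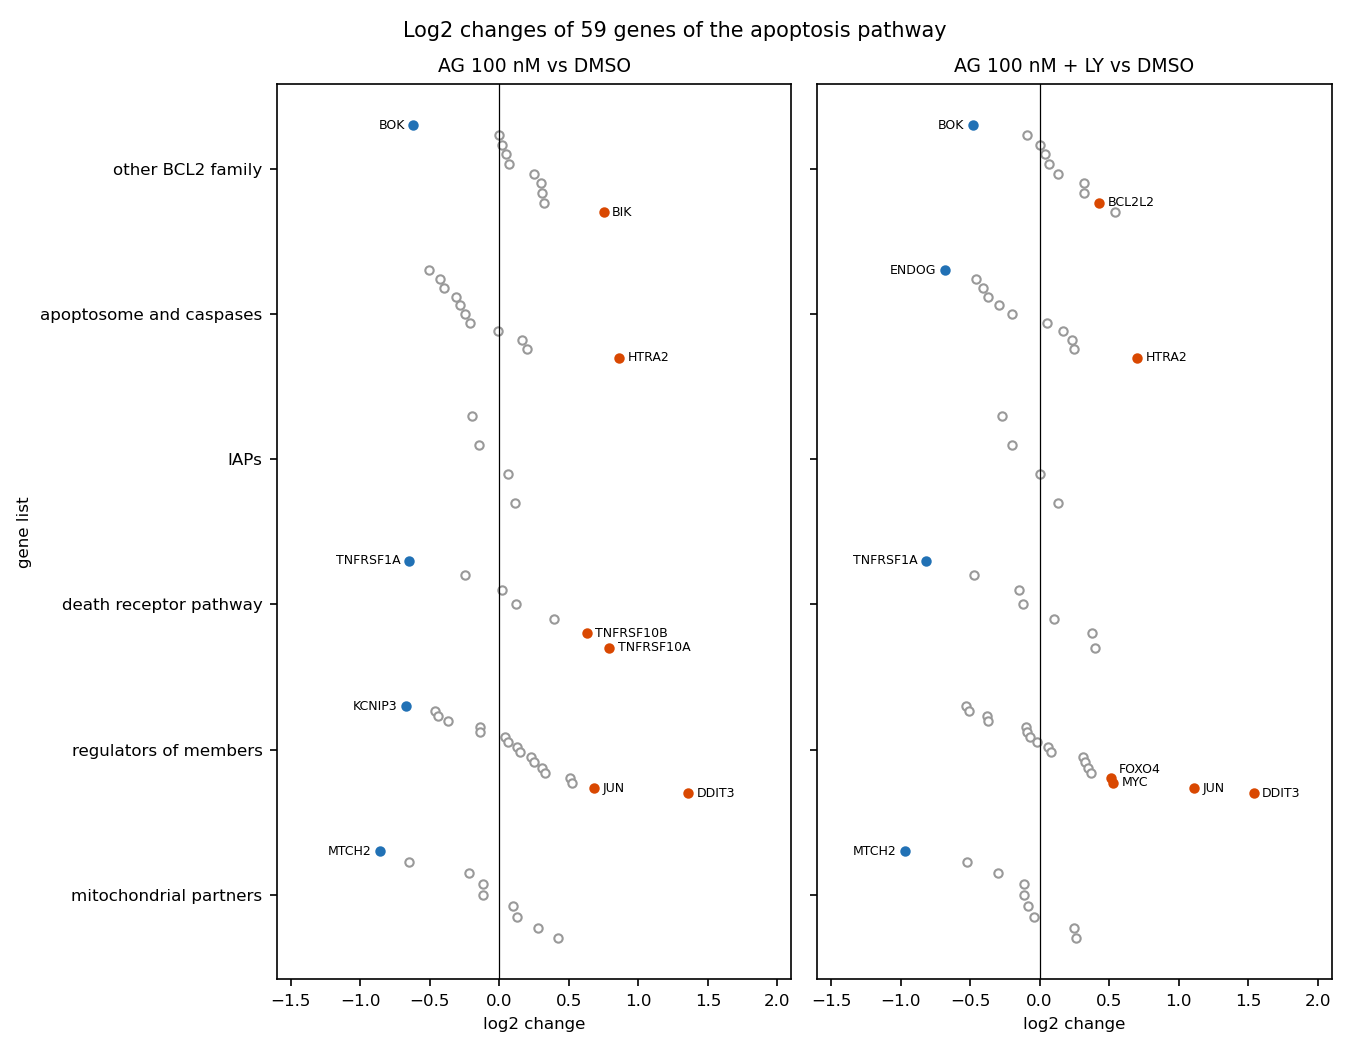
Log2 change against DMSO (horizontal axis) of 59 measured genes in 6 lists (rows) for 100 nM AG014699 (left) and the combination (right). Each point is the brightest probe of a gene; orange points rose and blue points fell at an adjusted p under 0.05, and open grey points were not called. DDIT3 lies farthest right in both panels, at 1.36 and 1.54, and MTCH2 farthest left, at -0.86 and -0.97.

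Between LY294002 and the combination 11 of the 59 genes were called, 7 higher and 4 lower, 18.6% beside 14.7% of all genes (7.77% higher and 6.9% lower). The count was 4 without combination array 1 or 2, 6 without combination array 3, 7 without LY294002 array 1 or 3, and 3 without the arrays numbered 1. In that order 8.12%, 7.17%, 7.47%, 8.59%, 9.87% and 5.15% of all kept probes were called, against 11.4% in the main fit. The 4 lower genes were BOK, TNFRSF1A, USP9X and MTCH2. PPIF, which encodes the mitochondrial cyclophilin D, rose by 0.64 (SE 0.14, adjusted p = 0.00642), in all 27 alternatives. APAF1, the scaffold of the apoptosome, rose by 0.74 (SE 0.18, adjusted p = 0.0132), a call that ended without LY294002 array 3 or combination array 1 or 2. The stress transcription factor gene ATF4 rose by 0.49 (adjusted p = 0.015), a call that ended without combination array 1 or 2. These 3 genes were chosen after their values were seen. All 3 had a lower mean in LY294002 than in DMSO, and none was called in the combination against DMSO. APAF1 averaged 6.27 in DMSO, 5.76 in LY294002, 6.06 at 100 nM and 6.5 in the combination. In the same order PPIF averaged 7.19, 6.81, 7.61 and 7.45, and ATF4 13.38, 13.2, 13.71 and 13.69. Without background correction several of these changes were smaller by more than 1.5 times: at 100 nM BIK had 0.39, BOK -0.36, KCNIP3 -0.31 and MTCH2 -0.48, in the combination BOK had -0.29, FOXO4 0.29 and MTCH2 -0.54, and between LY294002 and the combination APAF1 had 0.33 and PPIF 0.39.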

How the data were processed

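RNA from the 15 samples had been amplified to biotin-labelled cRNA and hybridised to bead arrays, per the labels' protocols. For each probe and array the authors deposited an intensity with its detection p-value, per the file headers. The deposited intensities had medians of 114 to 115 on every array, and array 1 of 100 nM AG014699 held whole numbers only. A second table deposited by the authors equalled log2 intensity minus the probe mean to within 1e-07 and served as an alternative.

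The software was R 4.3.3, with limma (version 3.58.1) for the tests and statmod (version 1.5.0). Its neqc function (offset 16) gave background-corrected, quantile-normalized log2 signals. A probe entered when its detection p was under 0.05 on 3 or more arrays, and 2 probes with missing signals were dropped. Symbols came from GEO's annotation of the array. Group means were estimated from all 15 arrays jointly by lmFit and eBayes (degrees of freedom 10 from the arrays and 4.99 from the prior), with Benjamini-Hochberg adjustment over all kept probes for each comparison. The code was tested on simulated data. For a probe that no array of a group detected, the fold is a lower bound against the lowest detected signal of each array. From each pathway list up to 5 called genes with the largest change against DMSO are named, and the 5 genes most like HRK and BCL2L11. Array numbers are those of the titles, since the other replicate entry was constant within a group. Members and lists were chosen with earlier results of these data known, and counts over them are descriptions. The comparisons of LY294002 with each dose of AG014699 were added after the data were examined. The alternatives changed the background correction, normalization, filter, probes per gene, variance model and arrays used. One marker gene of the lists is not reported here.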

Additional observations from a re-analysis of the deposited data

Results flagged for a closer look

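One probe of BCL2, ILMN_1701120, gave a signal outside the tested data. It was left out by the filter because it was detected on 1 of 15 arrays, array 3 of 100 nM AG014699, with a log2 signal of 5.44, while the 3 DMSO arrays read 4.46, 4.53 and 4.79 and none of them detected it. The other 100 nM arrays read 4.46 and 4.34, undetected. With 1 array above the detection threshold no difference between groups was tested.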

How the results depend on the processing

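In 27 alternatives 0 of the member results called here reversed. HRK at 100 nM, in the combination and against LY294002, BCL2L11 ILMN_1774997 at 100 nM and in the combination against DMSO, ILMN_1766541 between LY294002 and the combination, and BID ILMN_1763386 in the combination kept their calls wherever they were tested. The cause of the moves below was not tested unless fewer arrays or probes entered.

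Member probes called at 10 nM went from 0 to 1, HRK, without background correction, with offset 50, on the deposited signals as they are, on the authors' value table, with probes detected on all 15 arrays, with 1 probe per gene, with array weights and with a trended robust variance. In these same 8 settings the pathway genes at 10 nM went from 0 to 1. Of all probes tested, 1.58% to 2.62% were called at 10 nM in these settings, against 1.11% in the main fit. Between LY294002 and the combination 7 of 20 member probes were called on the deposited signals, beside 14.3% of all kept probes. Without the 5 arrays numbered 1 the count was 2, beside 5.15%. With 1 probe per gene 3 of 10 members were called in the combination, beside 19.9% of all genes. The main fit called 6 of 20 probes there, so the count moved and the share did not. At 100 nM 5 of 10 were called in that setting, beside 21.5% of all genes. With only the groups compared in the fit, 2 member probes were called at 100 nM, beside 8.58% of all kept probes. In that fit 0 were called between 10 and 100 nM, beside 1.82%, and 0 also without the arrays numbered 1, beside 2.05%.

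Pathway genes called between 10 and 100 nM numbered 3 without background correction, with offset 50, on the deposited signals and with the trended variance, 4 on the value table and with the replicate block, and 2 with no filter, with probes detected on all arrays, with 1 probe per gene and with array weights. Of all probes tested, 7.25% to 8.12% were called in the settings that gave 3, against 5.59% in the main fit. It was 12.9% on the value table, 7.37% with the block, and 2.62% to 11.2% in the settings that gave 2. In the combination 17 were called without background correction, on the deposited signals and on the value table (54 genes measured), and 4 without the arrays numbered 1. Beside them 16.3%, 16.3%, 25.4% and 6.33% of all probes tested were called, in that order, against 13.1% in the main fit. Against LY294002 the combination had 17 on the value table, 3 without the arrays numbered 1 and 5 with only the groups compared, a fit that gave 6 at 100 nM. The shares of all probes tested were 21.9%, 5.15% and 7.71%, and 8.58% at 100 nM. In LY294002 2 were called with probes detected on all arrays, and 0 with the replicate block, without the arrays numbered 1 and with only the groups compared. These stood beside 1.33%, 0.583%, 0.0465% and 0.0802% of all probes tested, in that order.

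Leaving out 1 array at a time, member probes called ranged from 0 to 1 at 10 nM, 3 to 7 at 100 nM, 0 to 2 between the doses, 4 to 6 in the combination and 3 to 5 between LY294002 and the combination, and stayed at 0 in LY294002, between 100 nM and the combination and for the interaction. Pathway genes ranged from 0 to 1, 6 to 12, 1 to 2, 6 to 11 and 4 to 12 in the first 5 of these, from 0 to 1 in LY294002, and were 0 in the last 2. Over the same fits 0.642% to 1.3% of all kept probes were called at 10 nM, and 9.79% to 15.5% at 100 nM. The share was 2.61% to 6.16% between the doses and 8.36% to 14.3% in the combination. Between LY294002 and the combination it was 7.17% to 11.9%, in LY294002 0.203% to 0.545%, and between 100 nM and the combination 0.0676% to 0.148%.

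Over all kept probes, the 264 calls at 10 nM became 103 without the arrays numbered 1 and 444 with array weights, the 3348 at 100 nM became 2032 with only the groups compared, the 1324 between the doses became 431, and the 3097 in the combination became 1499 without the arrays numbered 1, where the 2704 against LY294002 became 1220. The 107 in LY294002 ranged from 11 to 320 and the 31 between 100 nM and the combination from 1 to 118. Higher calls were 41.1% in LY294002 and 54.9% on the value table, and 12.9% between 100 nM and the combination against 50% there.

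Same-numbered arrays deviated together at correlations of 0.11 to 0.28 for number 1, -0.03 to 0.14 for number 2 and 0.15 to 0.25 for number 3, and 13 of 15 arrays correlated best with their own number, a pattern that the labels do not explain. The numbers were not taken to pair the arrays. With the replicate block 7 member probes were called at 100 nM, BID ILMN_2372413 being added (adjusted p = 0.0445), 3 between the doses, BBC3 being added (adjusted p = 0.0454), 6 in the combination and 0 at 10 nM. In the same order 16.9%, 7.37%, 15.5% and 1.23% of all kept probes were called. A slide block was not run, because the headers name no slides. Dim probes such as those of BCL2L11 limit what the arrays can size.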
